A study of Mus musculus with 2 samples.

Results

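This report describes 10 mouse genes whose products meet doxorubicin inside a cell, out of 21905 genes listed in the deposited tables: the topoisomerases Top2a, Top2b and Top1, the break repair enzyme Tdp2, the efflux pumps Abcb1a, Abcb1b and Abcc1, and the reductases Cbr1, Por and Nqo1. They were chosen by role, and all 10 were found. Resident cells of femurs and tibias were profiled by 3′ single-cell RNA sequencing in 12-week-old female mice given vehicle (Veh) or doxorubicin (Doxo, 10 mg/kg) and killed at 96 h. Each condition is 1 library. How many mice went into a library is not given in the sources used here. Blood cells had been depleted with CD45, CD71 and Ter119. The sample labels also name CD31 as depleted, while the methods do not, and endothelial cells were present in both libraries. The genes were followed in cells grouped by marker genes of CAR cells (CXCL12-abundant reticular cells, the adiponectin-positive stroma of the marrow), fibroblasts, osteoblasts, chondrocytes and endothelial cells. Drug in the cells was not measured, so the values are RNA levels of genes that handle it.

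Doxorubicin slides between the bases of DNA and stops topoisomerase II after the enzyme has cut the helix, so the enzyme stays bound to the break. TOP2A is the isoform of dividing cells, TOP2B is found in resting cells too, and TOP1 nicks a single strand and is the target of another drug class, the camptothecins. TDP2 removes the trapped topoisomerase II from the DNA end. P-glycoprotein, which rodents encode by the paralogs Abcb1a and Abcb1b, and MRP1, encoded by Abcc1, pump anthracyclines out of cells. CBR1 reduces doxorubicin to its alcohol, doxorubicinol. POR, the partner of the microsomal P450 enzymes, passes electrons to the quinone ring of the drug, which can then make superoxide, and NQO1 reduces quinones and is a well-known target of the stress factor NRF2.

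The libraries held 2488 cells each, with a median of 8693 UMIs (unique molecules counted) per Veh cell and 7347.5 per Doxo cell. They shared 4 cell barcodes. Clusters gave 7 classes. CAR-like cells (371 in Veh, 428 in Doxo) had 8 of 8 listed markers above the other cells, as did chondrocyte-like cells (247 and 204) and endothelial-like cells (103 and 69). Cartilage and joint fibroblast-like cells (1105 and 1358) had 7 of 8, without Tnmd. Vessel-wall and endosteal fibroblast-like cells (413 and 249) had 7 of 8, without Pi16. Osteoblast-like cells (205 and 125) had 6 of 8, without Ibsp and Alpl, and were shallow, with medians of 3065 and 2930 UMIs. A cluster led by genes such as Clic5 and Rab37 (44 and 55 cells) had 2 markers of any class at most and is left unnamed. Median depth was lower in Doxo in every class except the CAR-like cells (6231 UMIs in Veh, 7317 in Doxo). The median share of mitochondrial UMIs was higher in Doxo in every class, for example 2.82% against 4.10% in the CAR-like cells.

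Levels are UMIs summed over the cells of a class and given per 1000000 UMIs of that class (CPM). Changes are log2 ratios of Doxo to Veh, reported where a class held at least 50 UMIs of the gene over both libraries. With 1 library per condition no test was possible, and every interval (95%, exact) covers counting error only. At this depth most of the genes differed little between the libraries. Over all cells, 0 of 10 differed at least 2-fold, against 4.13% of all genes with enough UMIs. By class the count was 0 of 8 in CAR-like cells (4.79% of all genes), 1 of 10 in cartilage and joint fibroblast-like cells (2.57%), 0 of 7 in vessel-wall and endosteal fibroblast-like cells (2.94%), 0 of 2 in osteoblast-like cells (6.02%), 0 of 9 in chondrocyte-like cells (6.81%), 0 of 4 in endothelial-like cells (4.29%) and 0 of 3 in the unnamed class (3.08%). The single gene past 2-fold was Top2a. The plot of levels by class gives each gene in every class of both libraries.

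**Figure D1:**
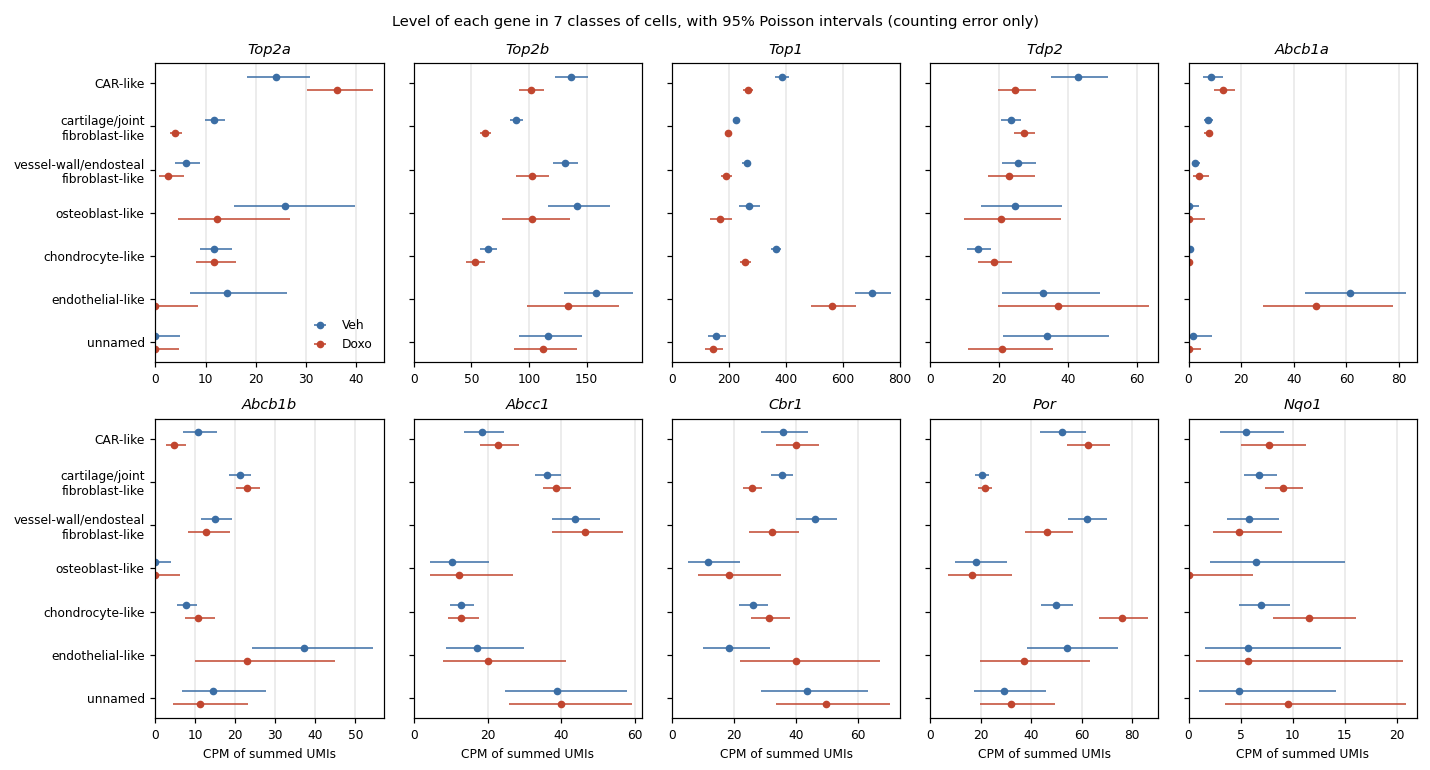
Level of each of the 10 genes (x axis, CPM of summed UMIs, a separate scale per gene) in 7 classes of cells (y axis), Veh in blue and Doxo in red. Points are the values of 1 library and bars are 95% Poisson intervals, or the 3-UMI floor where no UMI was found. Abcb1a is at 61.4 CPM in Veh and 48.6 in Doxo in endothelial-like cells and at no more than 13.1 in any other class.

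**Figure D2:**
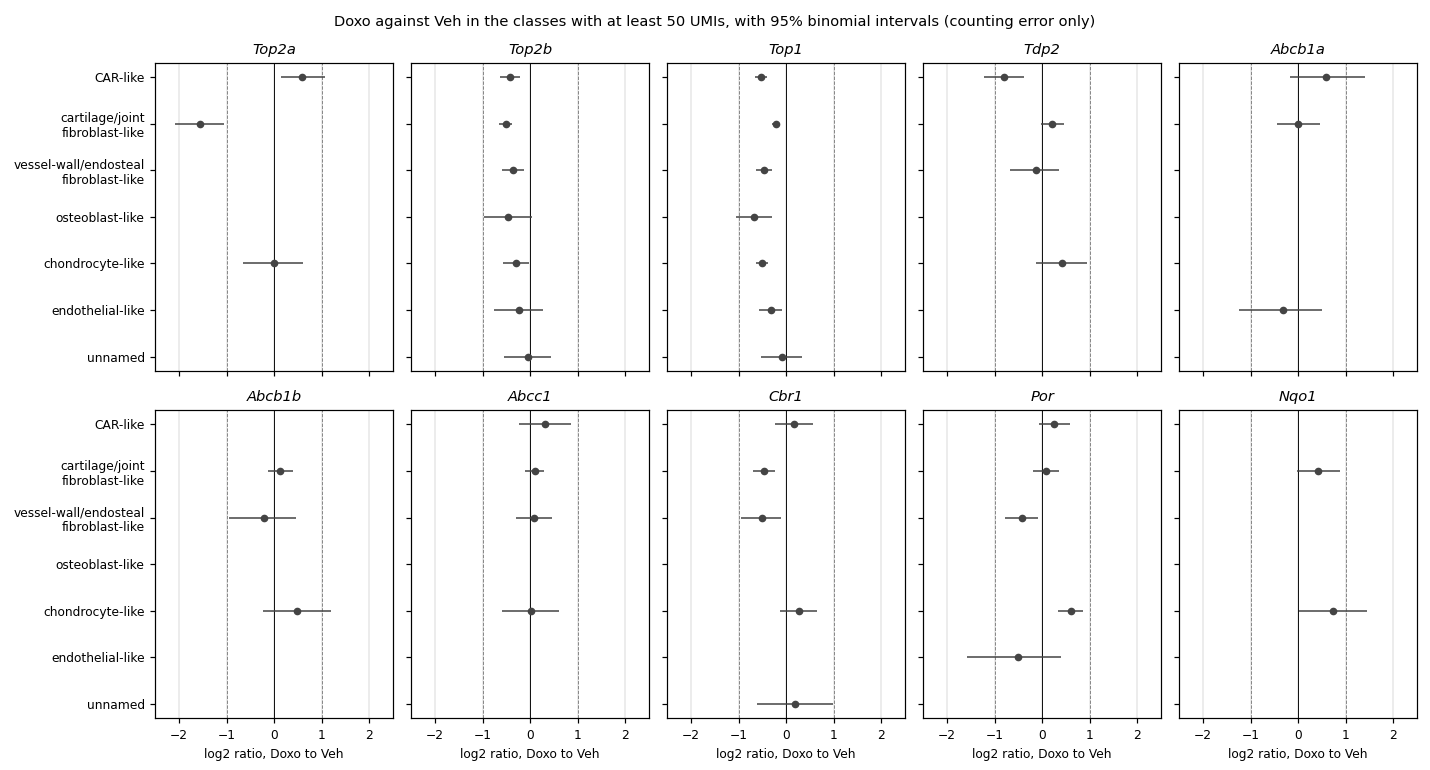
Log2 ratio of Doxo to Veh (x axis) of each gene in the classes (y axis) where it had at least 50 UMIs, with 95% binomial intervals. The dashed lines mark 2-fold. Top1 and Top2b lie below 0 in all 7 classes, and Top2a in cartilage and joint fibroblast-like cells (-1.55) is the single point past a dashed line.

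Top2a (ENSMUSG00000020914, GRCm38 chr11:98992943-99024189, minus strand) is transcribed from S phase to mitosis. Its paralog Top2b (ENSMUSG00000017485, chr14:16365179-16435462, plus strand) is not tied to division. The stretches before the RefSeq starts of both genes (GRCm38.p6, chr11:99024190-99024439 and chr14:16364956-16365178) are shown because Top2a was found in few cells and Top2b in many, and because the CCAAT box and the cell cycle homology region are common in promoters of genes of the late cell cycle. Capitals mark CCAAT and TTTGAA on either strand, which do not overlap in these stretches.
Top2a: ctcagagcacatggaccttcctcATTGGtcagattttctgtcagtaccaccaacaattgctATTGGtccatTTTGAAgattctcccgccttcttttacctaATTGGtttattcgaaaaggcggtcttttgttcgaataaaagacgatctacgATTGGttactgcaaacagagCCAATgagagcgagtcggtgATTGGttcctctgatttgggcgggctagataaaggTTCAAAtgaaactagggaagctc
Top2b: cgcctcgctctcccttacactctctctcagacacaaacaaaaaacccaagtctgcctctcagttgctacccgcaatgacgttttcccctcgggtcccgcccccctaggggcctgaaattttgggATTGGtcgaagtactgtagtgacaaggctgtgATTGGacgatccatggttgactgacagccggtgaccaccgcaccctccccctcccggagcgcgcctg
The Top2b stretch is printed as 223 bases, without the 27 next to the RefSeq start, which lie inside the annotated gene. In the full 250 bases before the RefSeq start, Top2a holds 6 CCAAT matches and 2 TTTGAA matches. Top2b holds 2 CCAAT matches and 0 of TTTGAA. Among 27025 RefSeq promoters, the 250 bases before the start hold CCAAT in 34.5% and TTTGAA in 16.3%. Of the 10 genes, 8 had a promoter in the table (not Tdp2 and Abcc1). CCAAT was also found in Abcb1b, with 2 matches, and TTTGAA in Abcb1a, with 2. A match is a match of letters and was not tested as a binding site.

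Top2a was found in few cells, and in Doxo most of its UMIs lay in a group of 14 cells, of which 85.7% held it. Over all cells it gave 305 UMIs in 159 Veh cells (12.3 CPM, 10.9 to 13.7) and 212 UMIs in 76 Doxo cells (10.2 CPM, 8.87 to 11.7), a log2 ratio of -0.27 (-0.53 to -0.01). The level was by far highest in cells with 5 or more other proliferation genes, out of 16 such as Mki67, Cdk1 and Birc5, which mark the later part of the cell cycle. In Veh it was 5.60 CPM in 1833 cells with none of them, 16.7 CPM in 127 cells with 2 to 4, and 447 CPM in 24 cells with 5 or more. In Doxo it was 3.64 CPM in 2098 cells with none, 5.57 CPM (0.67 to 20.1, 2 UMIs) in 31 cells with 2 to 4, where no rise beyond counting error was seen, and 728 CPM in 14 cells with 5 or more. These 14 Doxo cells held 139 of the 212 Doxo UMIs, and the 24 Veh cells held 136 of 305. Deep cells show more genes, and the groups of cells differ in depth. Cells with at least 2 of the 16 genes, here called cycling, made up 6.07% of Veh cells (151, 5.16 to 7.08) and 1.81% of Doxo cells (45, 1.32 to 2.41). After each cell was thinned to 2000 UMIs the shares were 1.35% and 0.79%. Summed over all cells, the 16 genes were at 64.0 CPM in Veh and 60.2 in Doxo. Of 14 with enough UMIs, 8 were higher and 6 lower in Doxo, with a median log2 ratio of 0.09 against 0.0005 over all genes. The single one past 2-fold was Mki67, with 327 and 113 UMIs (-1.27, -1.60 to -0.96). RNA of erythroid marker genes, such as the globin gene Hba-a1, stood at 301 CPM in Veh and 10.3 in Doxo over all cells. In cartilage and joint fibroblast-like cells it stood at 263 and 10.4 CPM. The part of free RNA in the Top2a levels and in the cycling shares was not tested.

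The largest class had less Top2a and fewer cycling cells in Doxo. In cartilage and joint fibroblast-like cells Top2a went from 132 UMIs in 70 Veh cells (11.7 CPM, 9.82 to 13.9) to 43 UMIs in 37 Doxo cells (3.98 CPM, 2.88 to 5.36), a log2 ratio of -1.55 (-2.09 to -1.05). Cycling cells of this class numbered 56 of 1105 in Veh and 10 of 1358 in Doxo, and none of the 10 held a Top2a UMI. The proliferation genes were lower too. All 7 with enough UMIs were at least 2-fold lower in Doxo, for example Mki67 at 148 and 17 UMIs (-3.03) and the spindle protein gene Prc1 at 83 and 18 UMIs (-2.12). Without the cycling cells of both libraries the Top2a ratio was -0.52.

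In CAR-like cells Top2a was higher in CPM but found in fewer cells. It gave 61 UMIs in 27 Veh cells (23.9 CPM, 18.3 to 30.7) and 122 UMIs in 20 Doxo cells (36.2 CPM, 30.1 to 43.2), a log2 ratio of 0.59 (0.14 to 1.07). Cycling CAR-like cells numbered 23 of 371 in Veh (6.20%) and 25 of 428 in Doxo (5.84%). Of the 122 Doxo UMIs, 109 lay in 10 cells with 5 or more proliferation genes, against 38 of 61 in 8 such Veh cells. Cdk1, the kinase that starts mitosis, had 9 UMIs in Veh and 69 in Doxo in this class (2.47), and Ube2c, a ubiquitin enzyme of mitotic exit, 22 and 60 (1.02). Of 8 proliferation genes with enough UMIs there, 7 were higher in Doxo, with a median log2 ratio of 0.68 against 0.05 over all genes. The 1 lower was Mki67, with 62 UMIs in Veh and 53 in Doxo. The sign of the Top2a ratio did not hold: it was -0.25 with every cell weighing the same, -0.79 after thinning and -1.32 without the cycling cells. The class of these cells also depended on the clustering. With 20 principal components in place of 35, 10 Doxo cells with 5 or more proliferation genes were placed among the cartilage and joint fibroblast-like cells, 2 among the CAR-like cells, and the ratios became -0.02 and -1.08. By marker counts alone, without clusters, 8 of the 14 such Doxo cells were CAR-like and 1 was in the cartilage and joint fibroblast-like class.

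**Figure D3:**
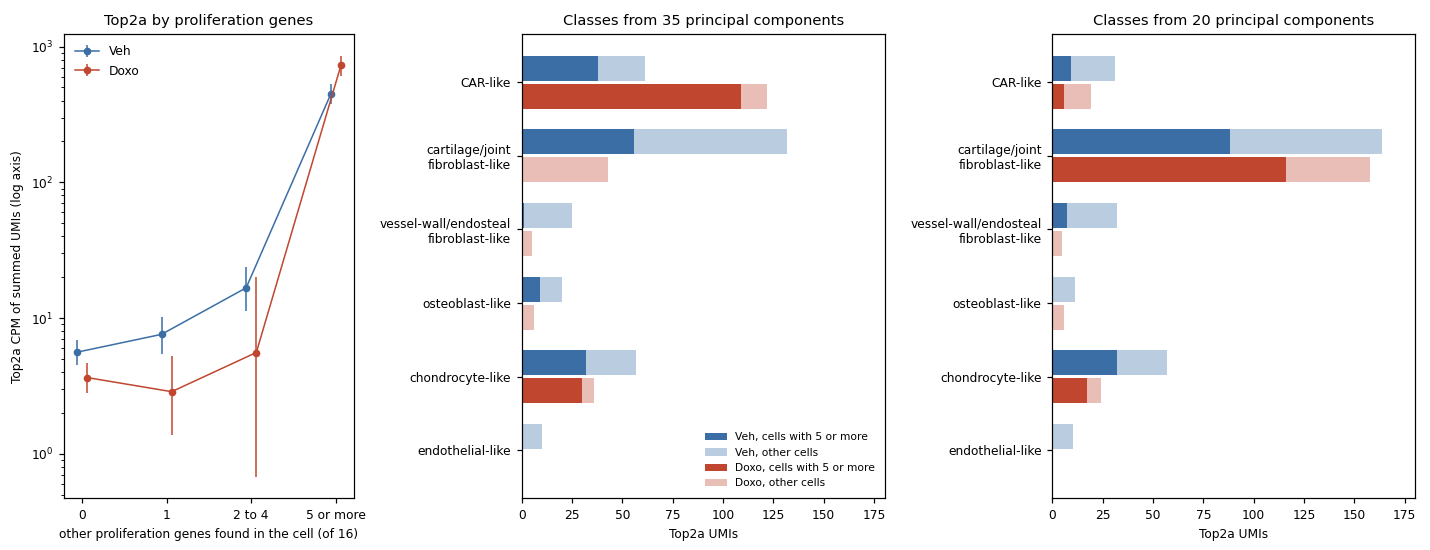
Left, Top2a level (y axis, CPM, log axis) in cells grouped by how many of 16 other proliferation genes were found (x axis), with 95% Poisson intervals. Middle and right, Top2a UMIs (x axis) by class (y axis) with classes from 35 and from 20 principal components, where dark parts are UMIs in cells with 5 or more proliferation genes. The dark Doxo part is 109 UMIs in CAR-like cells with 35 components and 116 in cartilage and joint fibroblast-like cells with 20.

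The remaining classes held few Top2a UMIs. Chondrocyte-like cells had 57 in Veh (11.7 CPM) and 36 in Doxo (11.6 CPM), a log2 ratio of -0.01 (-0.66 to 0.61), and -2.74 without the 5% of cells with most UMIs. Their cycling cells numbered 35 of 247 in Veh and 6 of 204 in Doxo (2.07% and 1.49% of cells after thinning). Summed over this class, the 16 proliferation genes were at 74.1 CPM in Veh and 125 in Doxo. Of 4 with enough UMIs, 3 were higher in Doxo, with a median log2 ratio of 0.25 against 0.04 over all genes. Past 2-fold was Cenpf, with 31 and 79 UMIs (1.98, 1.38 to 2.65). Osteoblast-like cells had 20 and 6 UMIs of Top2a, and vessel-wall and endosteal fibroblast-like cells 25 and 5. Endothelial-like cells had 10 UMIs in 8 of 103 Veh cells and 0 in 69 Doxo cells. There the floor of 3 UMIs is 8.57 CPM and the upper end of the exact interval is 10.5 CPM. In the unnamed class none was found in either library. There the floor of 3 UMIs is 4.84 CPM in Veh and 4.80 in Doxo, and the exact intervals reach 5.96 and 5.90 CPM.

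Top2b and Top1 were found in a large part of the cells of each class and were lower in Doxo in all 7 classes. Top2b gave 2494 UMIs in Veh (100.3 CPM) and 1556 in Doxo (74.8 CPM), a log2 ratio of -0.42 (-0.52 to -0.33). The interval lay below 0 in 4 classes: cartilage and joint fibroblast-like (-0.51, -0.66 to -0.37), CAR-like (-0.42, -0.64 to -0.20), vessel-wall and endosteal fibroblast-like (-0.36, -0.60 to -0.13) and chondrocyte-like cells (-0.29, -0.57 to -0.02). In the osteoblast-like, endothelial-like and unnamed classes it took in 0, and in the unnamed class the sign of Top2b and that of Top1 each held under 5 of 7 alternatives. The Top2b level was 102.7 CPM in Veh and 74.7 in Doxo in cells with none of the proliferation genes. It was 132 CPM (94.0 to 179) and 109.97 CPM (68.1 to 168) in those with 5 or more, with intervals that overlapped those of the cells with none.

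Top1 (ENSMUSG00000070544, chr2:160645888-160722764, plus strand) gave 7172 UMIs in Veh (288.5 CPM) and 4575 in Doxo (220.0 CPM), a log2 ratio of -0.39 (-0.44 to -0.34). By class the ratio ran from -0.67 (-1.06 to -0.30) in osteoblast-like cells to -0.09 (-0.52 to 0.34) in the unnamed class, the one class whose interval took in 0. Among 1775 genes with enough UMIs in every class, 9.41% were lower in Doxo in all 7 classes and 3.10% had an interval below 0 in at least 6, as Top1 did. The classes come from the same pair of libraries and so are not repeats of each other. In CAR-like cells part of the difference moved with a sub-cluster high in Il6, Ccl2 and Cxcl1, which held 173 Veh and 77 Doxo cells. Top1 was at 486 and 452 CPM in that sub-cluster and at 274 and 227 CPM in the other CAR-like cells, and the CAR-like ratio was -0.53 (-0.66 to -0.40) with it and -0.27 without it.

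Endothelial-like cells stood apart in Top1. They were at 703 CPM in Veh (643 to 768) and 563 in Doxo (487 to 647), against 276 and 214 CPM over all other cells, log2 differences of 1.35 and 1.40. The next class, CAR-like cells, was at 386 and 267 CPM, and the gap to it exceeded the counting error in both libraries (0.87, 0.71 to 1.02, in Veh and 1.08, 0.84 to 1.30, in Doxo). Chondrocyte-like cells (365 and 257 CPM) did not differ from CAR-like cells beyond counting error in either library. Among endothelial-like cells, the 51 Veh and 36 Doxo cells with more UMIs of 6 sinusoidal genes such as Stab2 than of 6 arterial genes such as Gja4 were at 841 (751 to 939) and 759 (642 to 892) CPM. The 47 and 32 cells with more arterial UMIs were at 501 (423 to 589) and 326 (241 to 431) CPM. In both libraries Top1 was thus higher in the cells with more sinusoidal UMIs than in those with more arterial UMIs. The 6 sinusoidal genes include Il6st and Vcam1, and the vessel type of the cells was not tested.

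Endothelial-like cells also had the highest Top2b level (158 CPM in Veh, 134 in Doxo), with osteoblast-like cells next among the named classes (142 and 103 CPM) and overlapping intervals. Chondrocyte-like cells were lowest in both libraries, at 64.8 and 52.9 CPM. In Veh the step from cartilage and joint fibroblast-like to chondrocyte-like cells was 0.45 (0.27 to 0.64). In Doxo the step between them did not exceed counting error.

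Tdp2 (ENSMUSG00000035958, chr13:24831679-24842153, plus strand) gave 606 UMIs in Veh (24.4 CPM) and 517 in Doxo (24.9 CPM), a log2 ratio of 0.03 (-0.14 to 0.20). The one class whose interval left out 0 was the CAR-like cells, with 109 UMIs in 87 Veh cells (42.8 CPM, 35.1 to 51.6) and 83 in 67 Doxo cells (24.6 CPM, 19.6 to 30.5), a log2 ratio of -0.79 (-1.23 to -0.37). CAR-like cells had the highest Tdp2 value in Veh, but the gap to the next class (0.31, -0.35 to 1.08) did not exceed counting error, nor did the gaps between neighbouring classes in Doxo. The ratio stayed below 0 in all 10 alternatives run, from -1.30 after thinning to -0.54 both without the sub-cluster high in Il6 and with a stricter cell filter. In that sub-cluster Tdp2 was at 52.9 CPM in Veh and 37.9 in Doxo, and in the other CAR-like cells at 31.5 and 21.7 CPM. In the other 3 classes with enough UMIs the interval took in 0, and in cartilage and joint fibroblast-like cells Tdp2 had 263 and 294 UMIs (0.22, -0.03 to 0.46).

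Other enzymes that act on a topoisomerase II break showed small differences. Of 13 listed, among them Mre11a, Rad50 and Xrcc5, 10 had enough UMIs in CAR-like cells, 4 higher and 6 lower in Doxo with a median log2 ratio of -0.17, against 0.05 over all genes of that class. The single one past 2-fold was Rbbp8, which encodes the end resection factor CtIP, at 154 UMIs in Veh and 92 in Doxo (60.4 and 27.3 CPM, -1.14, -1.53 to -0.76). In cartilage and joint fibroblast-like cells 8 of 11 were lower, with a median of -0.27 against -0.09 over all genes.

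Of the 3 efflux pumps, Abcb1a differed most between the classes. Abcb1a (ENSMUSG00000040584, chr5:8660077-8748575, plus strand) gave 43 UMIs in 31 of 103 Veh endothelial-like cells (30.1%, 61.4 CPM, 44.4 to 82.6) and 17 in 13 of 69 Doxo cells (18.8%, 48.6 CPM, 28.3 to 77.8). All other cells together were at 5.01 and 6.60 CPM, log2 differences of 3.63 (3.08 to 4.13) and 2.92 (2.06 to 3.61). Endothelial-like cells were 4.14% and 2.77% of the cells and held 26.2% and 11.2% of the Abcb1a UMIs. P-glycoprotein is best known in endothelium from the vessels of the brain, where it keeps drugs out. After thinning to 2000 UMIs, 13.5% and 13.1% of endothelial-like cells had an Abcb1a UMI, and the log2 ratio of Doxo to Veh was -0.31 (-1.24 to 0.50). Cells with more arterial UMIs (82.3 and 59.8 CPM) and those with more sinusoidal UMIs (45.1 and 41.0 CPM) had overlapping intervals.

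In the bone and cartilage classes Abcb1a was at or near 0. None was found in 205 Veh and 125 Doxo osteoblast-like cells. The floor of 3 UMIs is 3.86 and 6.16 CPM there, or 1.46% and 2.40% of cells with a UMI. The exact intervals reach 4.75 and 7.58 CPM, and 1.78% and 2.91% of cells. Chondrocyte-like cells, the deepest class at a median of 19476 UMIs in Veh, had 3 UMIs in Veh (1.21% of cells) and 1 in Doxo (0.49%). The endothelial-like cells, with their larger shares, were shallower, at medians of 6326 and 4629 UMIs. The part of free RNA in these values was not tested. CAR-like cells were next after endothelial-like cells, with 22 UMIs in 20 Veh cells (8.63 CPM) and 44 in 36 Doxo cells (13.1 CPM), a log2 ratio of 0.58 (-0.17 to 1.41) that did not exceed counting error. In cartilage and joint fibroblast-like cells it gave 85 and 82 UMIs, 7.56 and 7.59 CPM, with a ratio of 0.01 (-0.45 to 0.46).

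Abcb1b (ENSMUSG00000028970, chr5:8798147-8866315, plus strand), the neighbouring paralog, was spread more widely. It was at 37.1 CPM in Veh (24.2 to 54.4, 26 UMIs) and 22.9 in Doxo (9.87 to 45.0, 8 UMIs) in endothelial-like cells. Cartilage and joint fibroblast-like cells had 237 and 249 UMIs, 21.1 and 23.0 CPM, with a ratio of 0.13 (-0.13 to 0.39). In Veh endothelial-like cells were above this class (0.84, 0.17 to 1.40), and in Doxo the gap did not exceed counting error. Osteoblast-like cells again had 0 UMIs in both libraries. In CAR-like cells Abcb1b had 27 UMIs in Veh and 16 in Doxo, too few for a ratio to be reported among those above, and the direction was the opposite of Abcb1a (10.6 and 4.75 CPM). The paralogs share sequence. Of the 31-base words in the last 300 bases of the annotated coding transcripts, 26.9% of those of Abcb1b occur in transcripts of Abcb1a or Abcb4, and 0% of those of Abcb1a occur elsewhere, so some Abcb1b reads may not have been counted or may be misassigned.

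Abcc1 (ENSMUSG00000023088, chr16:14361558-14475737, plus strand) was highest in both fibroblast classes and the unnamed class. Over all cells its 739 Veh and 668 Doxo UMIs gave a log2 ratio of 0.11 (-0.04 to 0.27). Vessel-wall and endosteal fibroblast-like cells had 179 UMIs in Veh and 95 in Doxo, 43.6 (37.4 to 50.4) and 46.3 (37.5 to 56.6) CPM. Cartilage and joint fibroblast-like cells had 407 and 418 UMIs, 36.2 and 38.7 CPM, and the unnamed class was between them at 38.8 and 40.0 CPM, and neighbours in this order did not differ beyond counting error. CAR-like cells followed at 18.4 and 22.9 CPM, below the cartilage and joint fibroblast-like cells by 0.96 (0.54 to 1.44) in Veh and 0.75 (0.40 to 1.13) in Doxo. Chondrocyte-like (12.8 and 12.9 CPM), endothelial-like (17.1 and 20.0 CPM) and osteoblast-like cells (10.3 and 12.3 CPM) were lowest. The order of the 7 classes was the same in both libraries. In 4 of 4 classes with enough UMIs the ratio was above 0, from 0.02 to 0.30, and every interval took in 0.

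The wider list of 12 drug efflux transporters, these 3 included, had 0 genes past 2-fold in any class, with 2 to 8 of them reported per class and 2.57% to 6.81% of all genes past 2-fold. In CAR-like cells 4 of 6 were higher in Doxo, with a median log2 ratio of 0.25 against 0.05 over all genes, and in chondrocyte-like cells 6 of 7, with a median of 0.09 against 0.04. Abcg2, a pump of the blood-brain barrier and of stem cells, was named here after its values were seen because it had the same highest class as Abcb1a. It was at 258 CPM in Veh and 299.99 in Doxo in endothelial-like cells, and at 75.7 and 66.5 CPM in CAR-like cells. Of 8 listed carriers for organic cations and nucleosides, 7 were found. Slc22a3, an organic cation transporter, was past 2-fold in CAR-like cells, with 17 UMIs in Veh and 91 in Doxo (6.67 and 27.0 CPM, 1.98, 1.26 to 2.86), and had at most 5 UMIs in any other class of either library. Slc22a4, a carnitine and ergothioneine carrier, was lower in chondrocyte-like cells, with 183 and 31 UMIs (37.6 and 10.0 CPM, -1.89, -2.51 to -1.36).

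Cbr1 (ENSMUSG00000051483, chr16:93605853-93610505, plus strand) gave 856 UMIs in Veh (34.4 CPM) and 630 in Doxo (30.3 CPM), a log2 ratio of -0.18 (-0.34 to -0.03). It was lower in Doxo in both fibroblast classes. Cartilage and joint fibroblast-like cells had 399 and 278 UMIs, 35.5 and 25.7 CPM (-0.46, -0.69 to -0.24), and vessel-wall and endosteal fibroblast-like cells had 190 and 66, 46.2 and 32.2 CPM (-0.52, -0.95 to -0.11). In CAR-like and chondrocyte-like cells the ratios were 0.16 (-0.23 to 0.57) and 0.26 (-0.14 to 0.65). Osteoblast-like cells were lowest, with 9 UMIs in each library (11.6 and 18.5 CPM). Of the 31-base words at the end of Cbr1 transcripts, 12.2% occur in Gm5678, so a part of its reads may be counted for that gene.

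Of 16 listed carbonyl and aldo-keto reductases, Cbr1 included, 14 were found. In CAR-like cells 9 of 12 were higher in Doxo, with a median log2 ratio of 0.26 against 0.05 over all genes. In cartilage and joint fibroblast-like cells 8 of 9 were lower, with a median of -0.28 against -0.09. The difference between these classes was not tested. Past 2-fold was Akr1c12 in CAR-like cells, an aldo-keto reductase, with 83 UMIs in Veh and 246 in Doxo (32.6 and 73.0 CPM, 1.16, 0.80 to 1.54). Over all other classes it had 10 UMIs in Veh and 5 in Doxo. Cbr3, the closest relative of Cbr1 in this list, was lower in the unnamed class, with 45 and 20 UMIs (-1.16, -2.02 to -0.39).

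Por (ENSMUSG00000005514, chr5:135670033-135735326, plus strand) gave 930 UMIs in Veh (37.4 CPM) and 815 in Doxo (39.2 CPM), a log2 ratio of 0.07 (-0.07 to 0.20). In chondrocyte-like cells it had 243 UMIs in 142 Veh cells (49.99 CPM, 43.9 to 56.7) and 236 in 126 Doxo cells (76.1 CPM, 66.7 to 86.5), a ratio of 0.61 (0.34 to 0.87). In vessel-wall and endosteal fibroblast-like cells it had 255 and 95 UMIs, 62.1 and 46.3 CPM, a ratio of -0.42 (-0.78 to -0.08). Chondrocyte-like cells were highest in Doxo, above CAR-like cells (62.3 CPM) by 0.29 (0.01 to 0.56). In Veh the gaps between neighbours among the 4 classes with the highest values did not exceed counting error. The chondrocyte-like ratio stayed above 0 in 8 of 9 alternatives, for example 0.65 with every cell weighing the same. It was -0.34 after thinning to 2000 UMIs, when 20 Veh (8.30%) and 12 Doxo cells (5.97%) had a Por UMI. Median depth of this class was 19476 UMIs in Veh and 14769.5 in Doxo. Cartilage and joint fibroblast-like cells were low in both libraries, at 20.4 and 21.6 CPM.

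Nqo1 (ENSMUSG00000003849, chr8:107388225-107403206, minus strand) was sparse, with 160 UMIs in Veh (6.44 CPM) and 178 in Doxo (8.56 CPM), a log2 ratio of 0.41 (0.10 to 0.73). It was the single gene of the 10 with an interval above 0 over all cells, against 21.4% of all genes with enough UMIs. In the 2 classes with enough UMIs the ratios were 0.42 (-0.02 to 0.88) in cartilage and joint fibroblast-like cells, with 76 and 98 UMIs, and 0.73 (0.01 to 1.45) in chondrocyte-like cells, with 34 and 36 UMIs. No class stood apart in level: the highest, chondrocyte-like cells, was at 6.99 CPM in Veh and 11.6 in Doxo, and differed from the other cells by 0.17 (-0.44 to 0.71) and 0.55 (-0.04 to 1.07). The antioxidant response core TGACNNNGC was not found on either strand in the 250 bases before the RefSeq start of Nqo1, and 10.1% of all promoters hold it there. Bases further upstream were not searched, so an element there would be missed. Top2b held 1 match in its 250 bases.

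Of 10 other listed NRF2 target genes, 7 had enough UMIs in chondrocyte-like cells, 6 lower and 1 higher in Doxo, with a median log2 ratio of -0.49 against 0.04 over all genes. Txnrd1, a thioredoxin reductase, had 1111 UMIs in Veh and 203 in Doxo there (229 and 65.5 CPM, -1.80, -2.03 to -1.59), and Hmox1, the heme oxygenase, had 166 and 23 (34.2 and 7.42 CPM, -2.18, -2.90 to -1.57). In CAR-like cells Hmox1 had 652 and 333 UMIs (256 and 98.9 CPM, -1.37), with 4 of 8 genes lower and a median of -0.16 against 0.05. In cartilage and joint fibroblast-like cells 4 of 8 were higher, with a median of 0.05 against -0.09, and in the unnamed class 2 of 3, with 0.29 against 0.02. In endothelial-like cells Txnrd1 had 120 and 26 UMIs (-1.18, -1.88 to -0.58), and in the unnamed class Pgd, an enzyme of the pentose phosphate path, had 20 and 49 (1.26, 0.50 to 2.11). Of the 12 quinone and flavin reductases, Por and Nqo1 included, Nos3, the endothelial nitric oxide synthase, was also past 2-fold in endothelial-like cells, with 50 and 11 UMIs (71.3 and 31.4 CPM, -1.13, -2.27 to -0.22).

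Levels over the 7 classes of both libraries (14 points from 2 libraries, log2 of CPM plus 1) were compared with those of 10693 other genes with at least 200 UMIs. The gene most like Top2a was Mki67 (Pearson r = 0.90), followed by Apcdd1 (0.86) and Isyna1 (0.86). Closest to Top1 were Cks2 (0.97), Jak2 (0.94) and Shb (0.94), and to Top2b Asap1 (0.96), Stag1 (0.93) and Bmp2k (0.92). For Tdp2 they were Ranbp10 (0.90), Nfrkb (0.87) and Lonp1 (0.87). Abcb1a was most like Bcam (0.98), Sncaip (0.96) and Endou (0.96), Abcb1b most like Hspb1 (0.97), Eif1 (0.97) and Bcl2l1 (0.95), and Abcc1 most like Ccdc3 (0.98), Tnxb (0.96) and Tmem43 (0.96). None of the 3 genes nearest to Abcb1a was among those nearest to its paralog, and r between the paralogs was 0.63. Nearest to Cbr1 were Eef1akmt1 (0.94), Pip4p1 (0.92) and Nabp2 (0.92), to Por Cyp2j6 (0.87), Deptor (0.84) and Zfp36l1 (0.84), and to Nqo1 Carnmt1 (0.94), Ivd (0.89) and 2310015A10Rik (0.89). The points share libraries, depth and clustering, and no significance is attached to these values.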

How the data were processed

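Resident bone cells of 1 Veh and 1 Doxo library were sequenced with a 3′ droplet kit. The authors aligned reads to GRCm38 with Cell Ranger (version and annotation release not given in the sources used here), and the submitters' notes also name Partek. The table entries as deposited are on a log2 scale. In each cell the authors had scaled the counts to 1000000 before and again after taking logs, which was read from the values because the methods do not describe it. They were inverted to UMIs: 99.967% (Veh) and 99.964% (Doxo) of values up to 50 UMIs came out whole within 0.1. 22 symbols that were not whole include none of the 10 genes. Totals were 24859695 and 20792012 UMIs.

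Both libraries were merged and clustered in Seurat 5.3.0 (R 4.3.3) with 35 principal components of 2000 variable genes at a resolution of 0.1, and the endothelial-like cells were set aside before a second round. Clusters were named by the class with most markers out of 8, counting a marker if 10% or more of the cells had it and its level exceeded that of all remaining cells by 1 log2 unit, with 3 markers as the minimum. Doublets were not removed. Sums, exact intervals and ratios (0.5 UMI added) were computed with Python 3.11.15 and scipy 1.17.1 and were tested on simulated data. The genes, lists and rules were chosen with earlier results of these data known. Named in the text are the 10 genes, genes of the other lists past 2-fold (up to 3 in each direction) and the 3 genes most like each of the 10. Gene positions and transcripts are from GENCODE M21, promoters from RefSeq, both GRCm38. Protein sequences were not used here.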

Additional observations from a re-analysis of the deposited data

Results flagged for a closer look

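2 genes had a log2 ratio of Doxo to Veh with an interval above 0 in one class and below 0 in another. Top2a was at 0.59 in CAR-like cells and at -1.55 in cartilage and joint fibroblast-like cells. Por was at 0.61 in chondrocyte-like cells and at -0.42 in vessel-wall and endosteal fibroblast-like cells. Of all genes with enough UMIs, 19.0% had an interval above 0 in CAR-like cells and 17.5% in chondrocyte-like cells. Below 0 were 23.5% in cartilage and joint fibroblast-like cells and 12.2% in vessel-wall and endosteal fibroblast-like cells. The share of all genes with opposite intervals in different classes was not computed. The difference between the classes was not tested, since each condition has 1 library. For Top2a, 109 of 122 Doxo UMIs of the CAR-like cells lay in 10 cells with 5 or more proliferation genes, and the class of such cells depended on the number of principal components. For Por, the chondrocyte-like value kept its sign in 8 of 9 alternatives, up to 0.65, and was -0.34 after thinning to 2000 UMIs.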

How the results depend on the processing

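Each value was computed again under up to 10 alternatives. Of the log2 ratios of Doxo to Veh, 447 stayed within the counting interval of the main value and 32 did not. Of the comparisons of the highest class with the other cells, 141 stayed within it, 14 moved outside it, and 1 that was past 2-fold changed sign: Top2a in Doxo CAR-like cells was 2.81 above the other cells and -0.88 with 20 principal components. Among smaller differences, whose intervals took in 0, Cbr1 in Veh went from 0.38 to as low as -0.01, while Nqo1 in Veh (0.17) fell as low as -0.27, and Nqo1 in Doxo (0.55) as low as -0.42. Counts of genes past 2-fold kept their value in 76 cases and moved in 11. In cartilage and joint fibroblast-like cells the count went from 1 to 0 after thinning, with 20 principal components and without cycling cells. In CAR-like cells it went from 0 to 1 with every cell weighing the same (Tdp2), with 20 principal components (Top2a) and with a minimum of 10 UMIs (Abcb1b), and to 2 at 1.5-fold. With a minimum of 10 UMIs it was 1 in vessel-wall and endosteal fibroblast-like cells and 2 in endothelial-like cells. At 1.5-fold it was 1 in osteoblast-like and 2 in chondrocyte-like cells. Top1 stayed lower in Doxo in all 6 named classes under every alternative, and Top2b in all but chondrocyte-like (0.07) and endothelial-like cells (0.03), while Top1 in the unnamed class was 1.29 after thinning. The unnamed class did not exist with 20 components or with markers alone. Intervals and floors cover counting error only. No paired analysis was possible because each condition has 1 library.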
